A study of Mus musculus with 6 samples.

Results

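The type I interferon-stimulated genes are a group of 39 named mouse genes whose transcription rises when type I interferon (the interferon alpha family and interferon beta) binds its receptor. A gene was read here where the array annotation ties a probe set to it alone, and 36 of the 39 were read, each by 1 probe set, out of 19938 genes read in the same way. Ifi204, a DNA-binding protein, and Isg15, a ubiquitin-like modifier, lie only on probe sets shared with other genes, and Ifi44 was not matched to a probe set, so these 3 have no values below.

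Type I interferon binds a receptor made of Ifnar1 and Ifnar2, which activates the kinases Tyk2 and Jak1. The kinases phosphorylate Stat2, which with Irf9 is part of a complex called ISGF3 that binds a DNA motif, the interferon-stimulated response element, in front of its target genes. The products block viruses at many steps: they bind or cut foreign RNA, stop translation, sense viral nucleic acid, or modify proteins. In mouse macrophages a low level of interferon made by the cells themselves is known to keep part of this group transcribed without infection.

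The 3 populations compared were all cultured for 7 days from C57BL/6J marrow, with the mice given as male and as 6 to 10 weeks old. GM-BMDC, which the labels call dendritic cells, were the MHCIIhighF4/80low cells of cultures fed GM-CSF, a myeloid growth factor, at 25 ng/ml. GM-BMM, which the labels call macrophages, were the MHCIIlowF4/80high cells grown in GM-CSF at the same 25 ng/ml. M-BMM were grown in 20% L cell conditioned medium, which supplies the macrophage growth factor M-CSF, and were sorted as positive for CD11b and for the Adgre1 product that the other gates also use. Each population has 2 arrays labelled biological replicates, and no group was infected or given interferon per the labels. Every value is an RMA signal on the log2 scale, on which a difference of 1 is a 2-fold change. The labels do not say how many animals or cultures stand behind an array, so p-values measure the spread between arrays only.

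Markers were read before the members. The MHC class II genes H2-Aa, H2-Ab1 and H2-Eb1 were higher and Adgre1 (a marker of the gates) and Itgam (CD11b) lower in GM-BMDC than in either macrophage population. Xist, the RNA of the inactive X of female cells, read 11.66 and 10.68 in GM-BMDC, 11.58 and 4.93 in GM-BMM and 4.53 and 4.80 in M-BMM. The Y-linked gene Eif2s3y read 3.94 and 8.80 in GM-BMDC, 3.66 and 9.10 in GM-BMM and 9.32 and 9.17 in M-BMM, and Uty and Kdm5d split the arrays the same way. Replicate 1 of GM-BMDC and replicate 1 of GM-BMM thus go against the label male, and replicate 2 of GM-BMDC carries both signals. Results are given below with and without these arrays where they move a count. Xist was high on both GM-BMDC arrays and low on both M-BMM arrays. Its signal therefore cannot be told apart from population in that comparison. Leaving out the GM-CSF arrays numbered 1 keeps GM-BMDC replicate 2, where the Y-linked genes also read high. Neither that setting nor a Y-linked term in the fit separates Xist from population there, and its part was not tested.

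Many of these genes carry the response element close to their start, and the 5 measured members with 2 or more copies of its core are shown. They were chosen by their number of copies, and 3 of the 5 are among the genes that differ most below. RefSeq windows of 300 bases, 250 before to 50 after an annotated start, were held for 26 of the 36 measured members (build GRCm38.p6). Capitals mark the core, searched as GAAANNGAAA on one strand and TTTCNNTTTC on the other. Each window is written 5′ to 3′ on the strand of its gene.
Ifit3: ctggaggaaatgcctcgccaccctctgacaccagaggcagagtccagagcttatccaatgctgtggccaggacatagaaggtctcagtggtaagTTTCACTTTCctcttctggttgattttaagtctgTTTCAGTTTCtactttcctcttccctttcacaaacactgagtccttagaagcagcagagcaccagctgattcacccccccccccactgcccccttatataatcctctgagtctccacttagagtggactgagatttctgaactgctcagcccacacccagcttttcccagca
Ddx60: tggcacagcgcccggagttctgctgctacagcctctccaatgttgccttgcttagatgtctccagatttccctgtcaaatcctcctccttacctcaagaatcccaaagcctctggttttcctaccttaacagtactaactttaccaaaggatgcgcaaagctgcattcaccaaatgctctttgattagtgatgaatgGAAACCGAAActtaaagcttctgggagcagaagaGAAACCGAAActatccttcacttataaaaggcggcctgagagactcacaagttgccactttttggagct
Ifit1: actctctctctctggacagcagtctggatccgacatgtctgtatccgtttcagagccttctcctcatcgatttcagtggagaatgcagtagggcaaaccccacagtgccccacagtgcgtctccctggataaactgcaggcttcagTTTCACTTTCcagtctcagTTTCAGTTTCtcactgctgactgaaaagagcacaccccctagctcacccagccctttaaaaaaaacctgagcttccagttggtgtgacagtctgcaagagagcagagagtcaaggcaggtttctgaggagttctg
Bst2: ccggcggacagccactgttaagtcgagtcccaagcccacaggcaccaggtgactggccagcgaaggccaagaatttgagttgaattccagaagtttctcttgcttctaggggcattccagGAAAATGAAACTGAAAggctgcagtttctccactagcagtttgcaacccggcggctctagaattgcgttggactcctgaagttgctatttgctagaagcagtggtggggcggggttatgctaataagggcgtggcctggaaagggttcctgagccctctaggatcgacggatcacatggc
Oas1a: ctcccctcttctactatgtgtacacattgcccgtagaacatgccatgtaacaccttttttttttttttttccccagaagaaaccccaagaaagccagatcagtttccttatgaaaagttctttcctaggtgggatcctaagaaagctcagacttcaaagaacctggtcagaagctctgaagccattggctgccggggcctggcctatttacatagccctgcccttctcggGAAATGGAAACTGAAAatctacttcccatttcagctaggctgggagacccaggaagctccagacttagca
The Ifit3 window is chr19:34583279-34583578 (plus strand) and the Ifit1 window chr19:34640639-34640938 (plus strand). The Ddx60 window is chr8:61927837-61928136 (plus strand), the Bst2 window chr8:71537423-71537722 (minus strand) and the Oas1a window chr5:120907476-120907775 (minus strand). In Bst2 and in Oas1a both copies overlap and run together as 1 block of capitals.

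The core was found in 11 of the 26 measured members with a window (42.3%), against 3.99% of all 27018 genes with one. At least 2 copies were found in 5 of the 26 (19.2%), against 0.266% of all genes. A further motif, TTCNNNGAA, the core of the site bound by STAT dimers after interferon gamma, reads the same on both strands and was found in 7 of the 26 (26.9%), against 9.55% of all genes. Of its 7 matches in the members, 1 overlapped the response element core. The 11 members with the core had a median log2 difference of -1.23 between GM-BMDC and GM-BMM, and the 15 without it -1.08. Rsad2 and Oas3 had 1 copy in the window, while Ifit2, among the genes that differ most below, had none. These matches describe letters in a window and were not tested for binding.

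**Figure D1:**
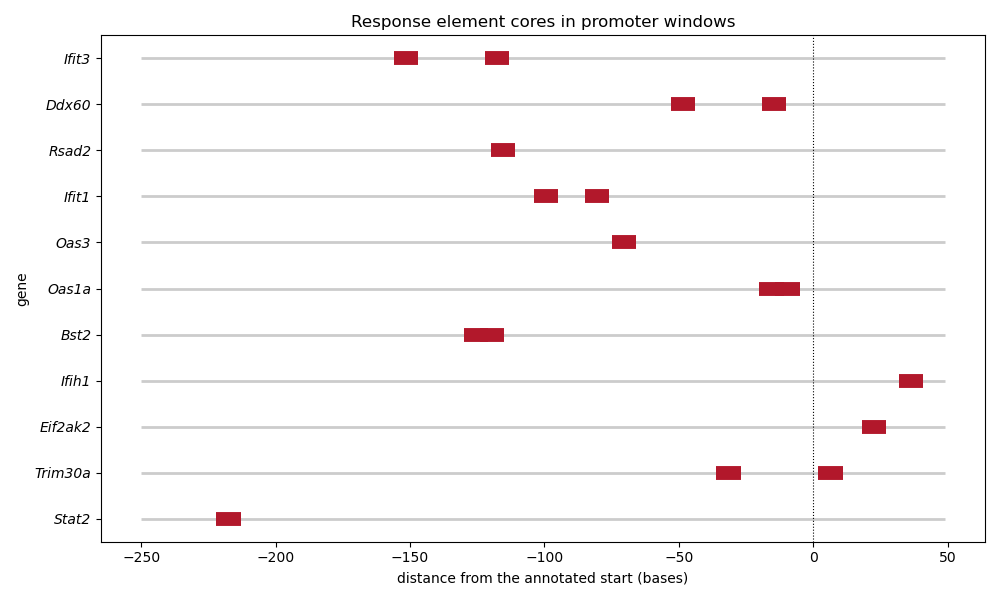
Position of each match of the response element core (red blocks, 10 bases) in the promoter windows (grey lines) of the 11 measured members that have 1, by distance from the annotated start in bases. Genes run from the lowest GM-BMDC minus GM-BMM difference at the top, and the pair of blocks of Trim30a comes from separate annotated starts.

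In GM-BMDC the group was low as a block. Against GM-BMM, 26 of the 36 members fell, 0 rose and 10 did not pass the test (limma, Benjamini-Hochberg adjusted p under 0.05). Over all 19938 genes 5.74% were called lower and 4.69% higher. The members' median log2 difference was -1.23, with a range of -3.40 to 0.79, against a median of 0.02 over all genes. At an unadjusted p under 0.05, 35 members were lower and 0 higher. All genes were not counted at the unadjusted threshold, here or below, so the shares given are not its background. Both GM-BMDC arrays lay below both GM-BMM arrays in 35 of the 36, against 24.6% of all genes.

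Against M-BMM the counts were close to these. Here 25 of the 36 fell and 0 rose, where 8.9% of all genes were called lower and 7.76% higher, and 1 member was higher at an unadjusted p under 0.05. The median log2 difference was -1.03, with a range of -3.51 to 1.11, against 0.00 over all genes. Both GM-BMDC arrays lay below both M-BMM arrays in 34 members, against 29.8% of all genes. These comparisons share the GM-BMDC arrays, so they are not independent. Lower in both were 24 members (3.37% of all genes), and both GM-BMDC arrays lay below all 4 macrophage arrays in 34 of 36 (16.5% of all genes), the exceptions being Mx1 and Trim25.

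**Figure D2:**
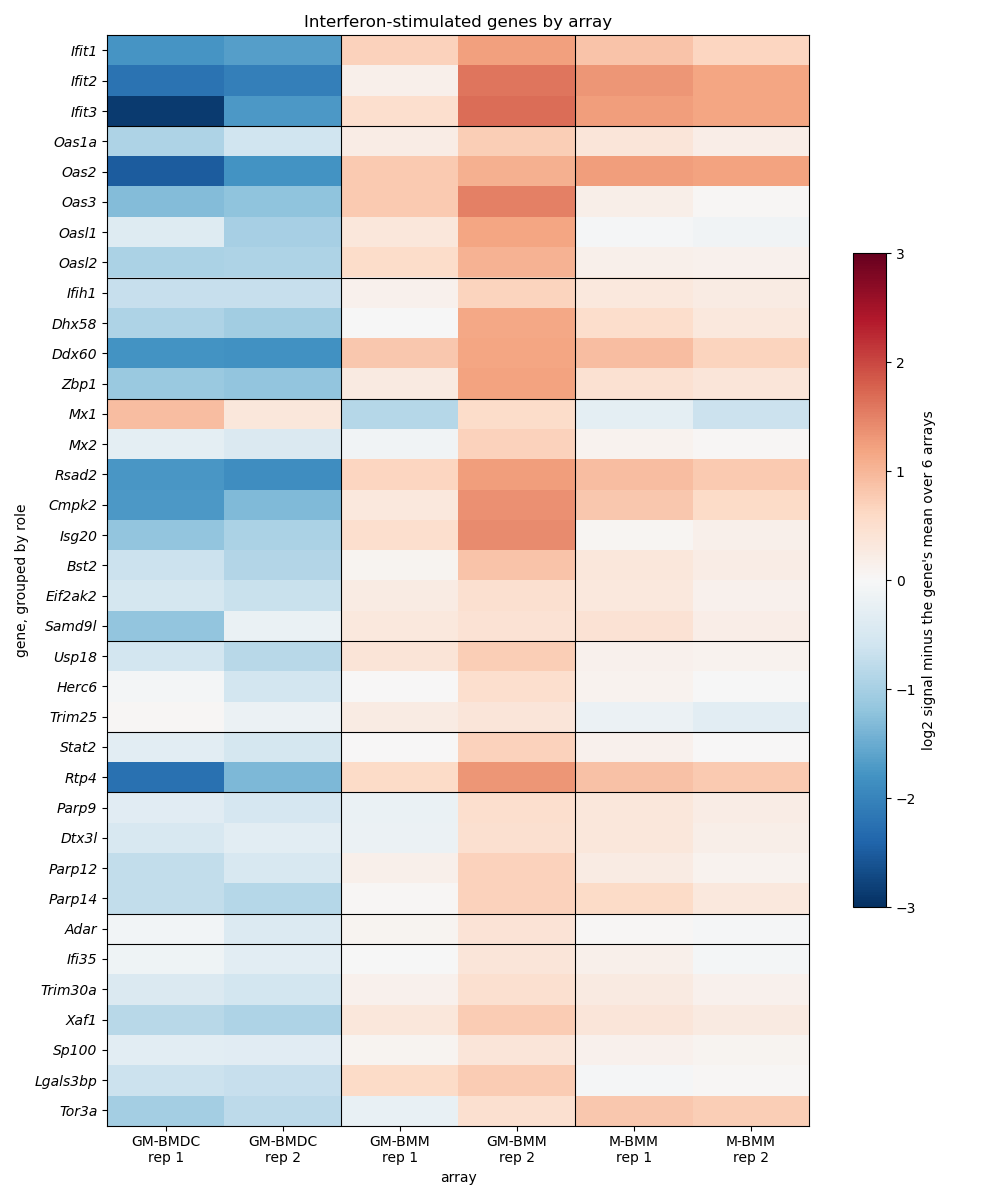
Log2 signal of the 36 members (rows, grouped by role between black lines) on the 6 arrays (columns), as the difference from the gene's mean over the arrays. Both GM-BMDC columns are blue in 34 rows, Mx1 is the row with the opposite colours in GM-BMDC, and GM-BMM replicate 2 is the deepest red column.

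In bulk samples such as these, fewer cells transcribing a gene and less RNA per cell cannot be told apart. Markers of cell types moved with the result. Of 12 measured macrophage markers, 7 were lower and 0 higher in GM-BMDC than in GM-BMM, and 4 were lower and 0 higher than in M-BMM. Their mean signal ranged from 9.63 to 10.49 in GM-BMDC, 11.34 to 11.36 in GM-BMM and 10.93 to 11.03 in M-BMM. This list holds Adgre1, whose direction was set by the sort, and Fcgr1, which is also listed below among other interferon-stimulated genes. Of 13 markers of conventional dendritic cells, 9 were higher and 1 lower in GM-BMDC than in GM-BMM, with mean signals of 8.59 to 8.69 in GM-BMDC, 6.75 to 7.05 in GM-BMM and 6.04 to 6.10 in M-BMM. Of 10 lymphocyte markers, 3 were higher and 0 lower in GM-BMDC than in GM-BMM, among them the B cell gene Cd79a at 7.15 and 6.23 in GM-BMDC, 3.99 and 4.49 in GM-BMM and 4.73 and 4.49 in M-BMM. The part of these shifts in the result was not tested. GM-BMDC replicate 2 had more macrophage signal than replicate 1, with Adgre1 at 10.91 against 9.39, and the median gap of the members between them (replicate 2 minus replicate 1) was -0.06. The gaps ran from -0.61 in Oasl1 to 1.15 in Ifit3, and 15 of 36 members were higher in replicate 2 (47% of all genes). Ifit3, Rtp4 and Oas2 were among the 15, while Ddx60 and Rsad2 were not. Whether the members follow the macrophage signal was not tested.

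Plasmacytoid dendritic cells are known as strong producers of type I interferon. Their marker Siglech read 5.73 and 6.02 in GM-BMDC, 5.62 and 5.76 in GM-BMM and 5.69 and 5.74 in M-BMM, and Ccr9 stayed between 4.48 and 5.27 on the 6 arrays. A signal under 5.04, the 25th percentile of all values of the table, is called low here. Over 8 markers of these cells the mean signal ranged from 6.91 to 7.18 in GM-BMDC, 6.69 to 6.95 in GM-BMM and 7.00 to 7.07 in M-BMM. Of the same 8, 2 were called higher and 1 lower in GM-BMDC than in GM-BMM. Spib, a transcription factor of these cells and of B cells, read 8.56 and 7.75 in GM-BMDC, 5.29 and 5.61 in GM-BMM and 6.42 and 6.48 in M-BMM, 6.52-fold higher in GM-BMDC than in GM-BMM. Pacsin1 was 2.24-fold higher and Lair1, an inhibitory receptor, 4.66-fold lower. The part of Spib and Pacsin1 in the result was not tested.

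The IFIT proteins, which bind viral RNA that lacks the methylated cap of host mRNA, had the largest differences as a family. Ifit3 read 6.89 and 8.04 in GM-BMDC, 10.28 and 11.44 in GM-BMM and 11.01 and 10.94 in M-BMM. It was 10.5-fold lower in GM-BMDC than in GM-BMM (log2 difference -3.40, SE 0.44, adjusted p = 0.00352) and 11.4-fold lower than in M-BMM (-3.51, SE 0.44, adjusted p = 0.00183). The GM-BMDC arrays differed from each other by 1.15 for this gene, the widest gap among the members in that population, and still lay more than that below every macrophage array. Ifit3 has a near copy, Ifit3b, with a probe set of its own, and signal shared between them was not tested.

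Ifit2 read 6.83 and 6.98 in GM-BMDC, 9.20 and 10.65 in GM-BMM and 10.36 and 10.23 in M-BMM, and was 8.10-fold lower than in GM-BMM and 10.5-fold lower than in M-BMM. Its log2 difference of -3.02 from GM-BMM was -3.75 without GM-BMM replicate 1 and -2.29 without GM-BMM replicate 2. Ifit1 read 7.55 and 7.65 in GM-BMDC, 9.99 and 10.55 in GM-BMM and 10.16 and 9.96 in M-BMM, 6.37-fold and 5.50-fold lower. All 3 genes were called in both comparisons, with adjusted p between 0.000249 and 0.00385. Between the macrophage populations none of the 3 was called and their arrays overlapped.

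The oligoadenylate synthetases make a short RNA-like signal when they meet double-stranded RNA, which switches on an RNA-cutting enzyme. All 5 measured members of this family fell in GM-BMDC against GM-BMM, and 4 of 5 against M-BMM. Oas2 read 6.84 and 7.53 in GM-BMDC, 10.11 and 10.41 in GM-BMM and 10.58 and 10.53 in M-BMM. It was 8.47-fold lower than in GM-BMM (log2 difference -3.08, SE 0.22, adjusted p = 0.000363) and 10.4-fold lower than in M-BMM (-3.38, SE 0.22, adjusted p = 0.000146).

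Oas3 stood in a different order. Its signal was 8.0 and 8.08 in GM-BMDC, 10.09 and 10.81 in GM-BMM and 9.47 and 9.33 in M-BMM, so that GM-BMM was highest, M-BMM between and GM-BMDC lowest with no overlap of arrays. The log2 difference was -2.41 (SE 0.22, adjusted p = 0.000791) from GM-BMM and -1.36 (SE 0.22, adjusted p = 0.00547) from M-BMM. Oasl2, a synthetase-like protein, had the same order, with 9.75 and 9.78 in GM-BMDC, 11.27 and 11.74 in GM-BMM and 10.87 and 10.84 in M-BMM. Oasl1, which in mice restrains translation of Irf7, was 2.76-fold lower than in GM-BMM (adjusted p = 0.0198) and 1.54-fold lower than in M-BMM without passing the test (adjusted p = 0.22). Oas1a was 2.35-fold and 2.04-fold lower in GM-BMDC than in GM-BMM and M-BMM (adjusted p = 0.00804 and 0.0107).

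The nucleic acid sensors fell as a set, 4 of 4 in both comparisons. Ddx60, a helicase that aids RNA sensing, read 6.74 and 6.72 in GM-BMDC, 9.35 and 9.72 in GM-BMM and 9.47 and 9.20 in M-BMM. Its arrays were close within each population, and it was 6.99-fold lower than in GM-BMM (log2 difference -2.81, SE 0.16, adjusted p = 0.000134) and 6.09-fold lower than in M-BMM (-2.61, SE 0.16, adjusted p = 9.97e-05). Zbp1, a sensor of left-handed nucleic acid that can start cell death, was 3.70-fold and 2.92-fold lower. Dhx58 (LGP2), which tunes the RNA sensors, was 2.94-fold and 2.66-fold lower, with adjusted p = 0.0265 and 0.0263, and Ifih1 (MDA5), a sensor of long double-stranded RNA, 2.12-fold and 1.96-fold lower.

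Among the direct antiviral effectors, 5 of 8 fell against GM-BMM and 6 of 8 against M-BMM. Rsad2 (viperin), which makes a chain-ending nucleotide, read 8.30 and 8.19 in GM-BMDC, 10.68 and 11.30 in GM-BMM and 10.98 and 10.83 in M-BMM, 6.68-fold and 6.30-fold lower in GM-BMDC. Cmpk2, a mitochondrial nucleotide kinase, read 6.19 and 6.59 in GM-BMDC, 8.24 and 9.28 in GM-BMM and 8.73 and 8.49 in M-BMM, 5.17-fold and 4.66-fold lower. Isg20, an RNA exonuclease, was 4.06-fold lower than in GM-BMM and 2.24-fold lower than in M-BMM. Bst2 (tetherin), which holds budding virus at the cell surface, was 2.34-fold and 2.05-fold lower, and Eif2ak2 (PKR), the kinase that stops translation on double-stranded RNA, 1.95-fold and 1.77-fold lower. Samd9l, a restriction factor for poxviruses, read 7.52 and 8.51 in GM-BMDC, 9.03 and 9.16 in GM-BMM and 9.15 and 8.92 in M-BMM, and passed the test only narrowly against M-BMM (adjusted p = 0.0498) and not against GM-BMM (adjusted p = 0.056).

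Mx1 was the member with the highest difference in both comparisons of GM-BMDC, above 0 in each. Its signal was 9.74 and 9.16 in GM-BMDC, 7.95 and 9.36 in GM-BMM and 8.51 and 8.16 in M-BMM. Both GM-BMDC arrays lay above both M-BMM arrays, with a log2 difference of 1.11 (95% interval 0.12 to 2.10, adjusted p = 0.131), and they overlapped those of GM-BMM, with 0.79 (interval -0.20 to 1.78, adjusted p = 0.331). The GM-BMM arrays alone were 1.41 apart. The Mx proteins are GTPases that block incoming virus, and C57BL/6J mice are known to carry an Mx1 allele with a deletion that gives no working protein. Mx2 read 6.81 and 6.68 in GM-BMDC, 7.00 and 7.79 in GM-BMM and 7.20 and 7.14 in M-BMM and did not pass either test.

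Of the ISG15 system, Usp18, which removes ISG15 from proteins and also restrains the interferon receptor, fell in both comparisons. It read 10.15 and 9.87 in GM-BMDC, 11.08 and 11.43 in GM-BMM and 10.82 and 10.80 in M-BMM, 2.37-fold and 1.74-fold lower. Herc6, the ligase that attaches ISG15 in mice, had log2 differences of -0.57 and -0.35 and passed neither test. Trim25, a ligase that acts on RNA sensing, read 9.88 and 9.68 in GM-BMDC, 10.10 and 10.22 in GM-BMM and 9.67 and 9.54 in M-BMM. Its difference of 0.18 from M-BMM had a 95% interval of -0.11 to 0.47, and that of -0.38 from GM-BMM one of -0.67 to -0.09. Neither passed the test (limma adjusted p = 0.429 and 0.108).

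Rtp4, a transport protein of receptors, read 7.62 and 8.52 in GM-BMDC, 10.44 and 11.20 in GM-BMM and 10.75 and 10.66 in M-BMM, 6.71-fold and 6.20-fold lower (adjusted p = 0.0024 and 0.00172). Stat2, the subunit of ISGF3 among the members, read 9.70 and 9.47 in GM-BMDC, 10.03 and 10.71 in GM-BMM and 10.13 and 10.01 in M-BMM. Its GM-BMDC arrays lay below the rest, but neither the log2 difference of -0.79 from GM-BMM (adjusted p = 0.0642) nor that of -0.49 from M-BMM (adjusted p = 0.195) passed.

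Members that act on ADP-ribose and RNA bases differed less. Parp12 and Parp14, which attach single ADP-ribose units, fell in both comparisons, by 1.02 and 1.17 on the log2 scale against GM-BMM and by 0.78 and 1.24 against M-BMM. Parp9 and Dtx3l, which work as a complex, did not pass either test, with log2 differences between -0.70 and -0.55. Adar, which edits adenosine in double-stranded RNA, had -0.49 and -0.23 and was not called.

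Of the other 6 measured members, 5 fell against GM-BMM and 4 against M-BMM. Xaf1, a factor that promotes cell death, was 2.71-fold and 2.31-fold lower and Trim30a, a restraint on Toll-like receptor signalling in mice, 1.75-fold and 1.63-fold lower. Lgals3bp, a secreted glycoprotein, read 11.51 and 11.46 in GM-BMDC, 12.73 and 12.91 in GM-BMM and 12.11 and 12.18 in M-BMM, 2.52-fold and 1.58-fold lower, with 3 separate levels. Tor3a, a torsin ATPase, read 9.01 and 9.24 in GM-BMDC, 9.79 and 10.49 in GM-BMM and 10.83 and 10.75 in M-BMM, so that M-BMM was the highest population. Sp100, a nuclear body protein, fell by 0.55 against GM-BMM (adjusted p = 0.0327) and had -0.43 against M-BMM (adjusted p = 0.0553). Ifi35, an interferon-induced leucine zipper protein, had -0.41 and -0.28 and was not called.

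**Figure D3:**
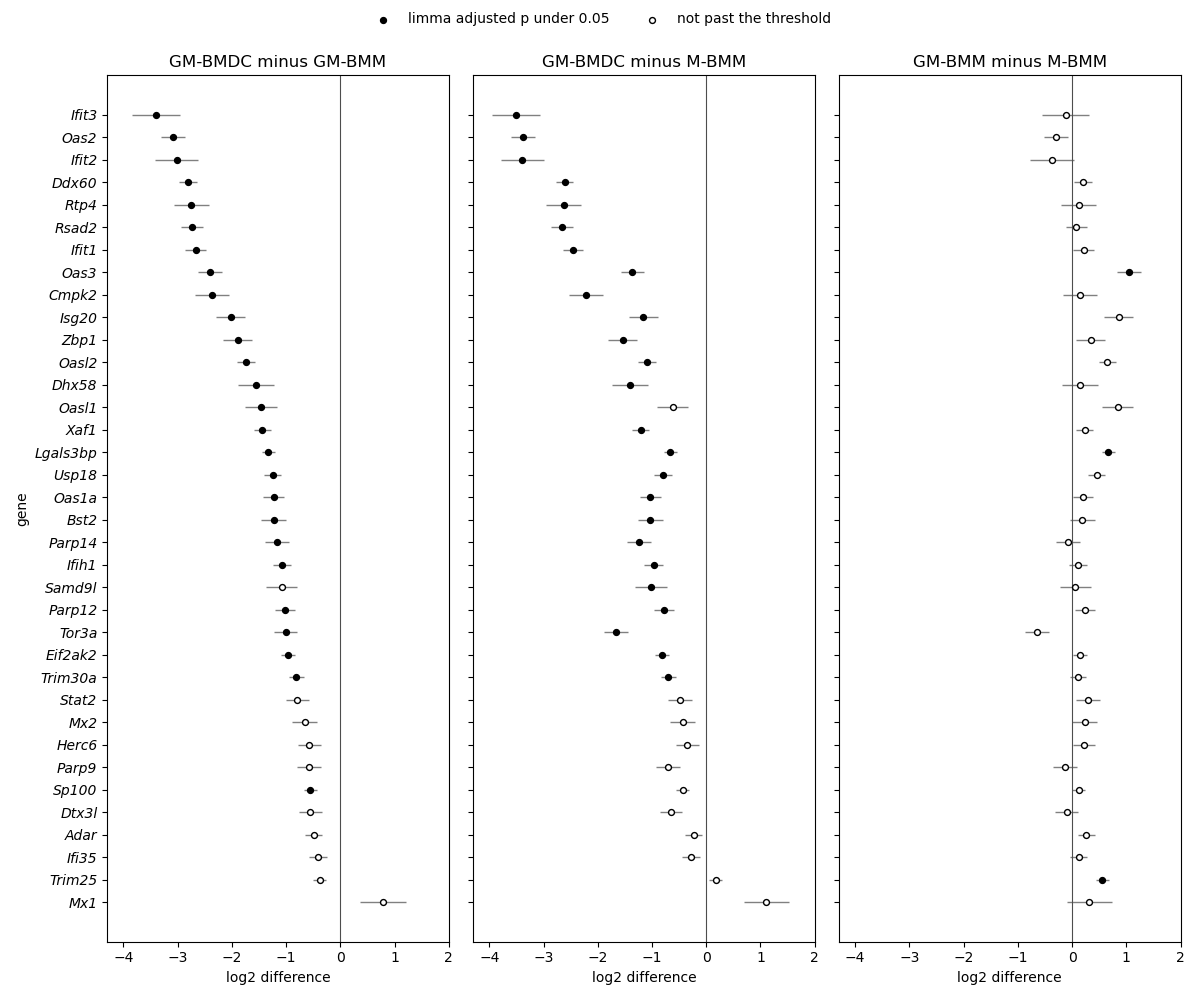
Log2 difference (point) with its standard error (line) for each of the 36 members in the 3 comparisons, in the order of the GM-BMDC minus GM-BMM difference. Filled points pass the threshold: 26 and 25 members lie left of 0 as filled points in the panels for GM-BMDC, and 3 lie right of 0 in the panel for GM-BMM minus M-BMM.

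Calls rested on single arrays to different degrees. When each of the 6 arrays was left out in turn, 17 of the 26 calls against GM-BMM and 11 of the 25 against M-BMM held every time. The genes that held in both were Ifit1, Ifit2, Ifit3, Oas2, Oasl2, Ddx60, Rsad2, Cmpk2, Rtp4 and Xaf1, 10 in all. Without M-BMM replicate 1, 11 members were lower against M-BMM, and without M-BMM replicate 2, 14 were. The calls over all genes shrank too, from the 8.9% given above: 2.79% of all genes were called lower without M-BMM replicate 1 and 3.66% without M-BMM replicate 2. Without both GM-CSF arrays numbered 1, in which Eif2s3y, Uty and Kdm5d lay under the low level, 33 members were lower against GM-BMM (5.09% of all genes) and 29 against M-BMM (7.63%), and Mx1 had a log2 difference of -0.20 from GM-BMM. Without both numbered 2 the counts were 25 (7.02% of all genes) and 27 (11%). With the Y-linked signal as a covariate they were 27 (6.31%) and 19 (5.16%).

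Between the macrophage populations few members differed. Against M-BMM, 3 members were higher in GM-BMM and 0 lower, where 3.62% of all genes were called higher and 2.57% lower, and 1 member was lower at an unadjusted p under 0.05. The median log2 difference was 0.20, against -0.02 over all genes, and the arrays overlapped in 26 members. The 3 called were Oas3 (log2 difference 1.05, SE 0.22, adjusted p = 0.0333), Lgals3bp (0.67, SE 0.12, adjusted p = 0.0162) and Trim25 (0.56, SE 0.12, adjusted p = 0.0424). None of these 3 calls held when each array was left out in turn.

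Both GM-BMM arrays also lay above both M-BMM arrays in Oasl1, Oasl2, Isg20, Usp18 and Adar, which makes 8 members in all (22.6% of all genes), with log2 differences of 0.84, 0.65, 0.86, 0.45 and 0.26 in these 5. They lay below in Oas2 and Tor3a, with -0.29 and -0.65 (27.2% of all genes).

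The GM-BMM arrays differed from each other more than the macrophage populations did. Replicate 2 was above replicate 1 in 36 of 36 members, where 55.7% of all genes were, with a median gap of 0.59 on the log2 scale against 0.03 over all genes. The gap ran from 0.12 in Trim25 to 1.46 in Ifit2. Replicate 2 was the highest of the 6 arrays in 33 members (15.8% of all genes), the exceptions being Oas2, Mx1 and Tor3a. In 15 members both M-BMM arrays lay between the GM-BMM arrays (12.9% of all genes).

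In the other populations replicate 2 did not stand above replicate 1 in this way. In GM-BMDC replicate 2 was above replicate 1 in 15 of 36 members (47% of all genes), with a median gap of -0.06. In M-BMM it was above in 2 of 36 (49% of all genes), Isg20 and Lgals3bp, but the gaps were small, with a median of -0.12 and a range of -0.35 to 0.08. Set against each M-BMM array, GM-BMM replicate 1 had median member differences of -0.15 and 0.01 and GM-BMM replicate 2 had 0.40 and 0.53.

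**Figure D4:**
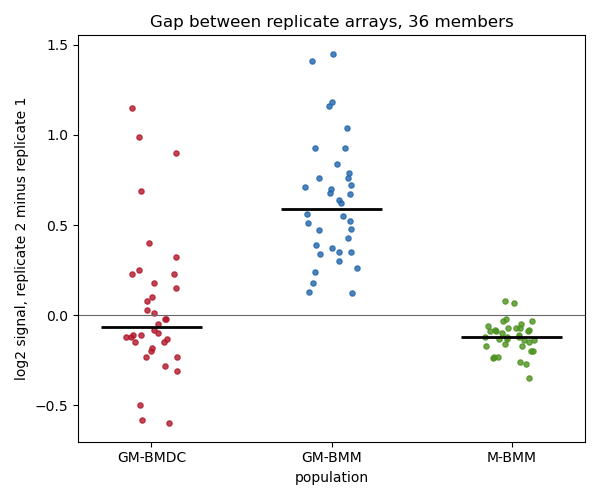
Log2 signal of replicate 2 minus replicate 1 for each of the 36 members (points) in the 3 populations, with the median as a bar. All points of GM-BMM lie above 0 with a median of 0.59, while the medians of GM-BMDC and M-BMM are -0.06 and -0.12.

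Other values differed between the same GM-BMM arrays. Replicate 1 had the X and Y signals described above. The mean of 11 neutrophil markers was 6.66 in it and 6.13 in replicate 2, with 6 markers higher and 5 lower in replicate 1 and the widest gaps in Ngp (9.02 against 7.02) and S100a8 (8.54 against 7.04). All 6 monocyte markers were higher in replicate 1, with a mean of 9.15 against 8.48, and H2-Aa was lower (10.25 against 11.45). The mean of 12 macrophage markers was 11.36 and 11.34. Whether any of these bears on the gap was not tested. With both GM-CSF arrays numbered 1 left out, 13 members were higher in GM-BMM than in M-BMM and 0 lower, where 4.89% of all genes were called higher and 3.01% lower. With both numbered 2 left out, 2 were higher and 3 lower, where 5.86% of all genes were called higher and 4.41% lower, so the members' counts between the macrophage populations depended on which GM-CSF arrays were used.

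The genes upstream of the members did not fall together. The list counts that follow stand beside the shares of all genes given above for each comparison. Of 15 interferon ligand genes read, 0 were higher and 1 lower in GM-BMDC than in GM-BMM, and 0 were called in the other comparisons by limma. Ifnb1, the gene of interferon beta, read 5.20 and 4.79 in GM-BMDC, 4.93 and 5.08 in GM-BMM and 4.89 and 5.22 in M-BMM, around the low level. Its log2 difference from GM-BMM was -0.01, with a 95% interval of -0.42 to 0.40, and that from M-BMM -0.06, with -0.47 to 0.35. The gene called was Ifna12, which read 3.70 and 3.64 in GM-BMDC, 4.12 and 4.55 in GM-BMM and 3.80 and 3.96 in M-BMM, all under the low level. Its log2 difference from GM-BMM was -0.66 (limma adjusted p = 0.0409), and ran from -0.88 to -0.45 when single arrays were left out.

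The receptor subunit Ifnar2 read 10.59 and 10.70 in GM-BMDC, 11.62 and 11.53 in GM-BMM and 11.11 and 11.11 in M-BMM. It was 1.90-fold lower than in GM-BMM (adjusted p = 0.00247) and 1.38-fold lower than in M-BMM (adjusted p = 0.0277). Ifnar1 read 9.97 and 10.03 in GM-BMDC, 10.30 and 10.49 in GM-BMM and 10.22 and 10.09 in M-BMM, and did not pass (adjusted p = 0.0848 and 0.481). Of the 9 receptor, kinase and STAT genes read, 2 were higher and 3 lower in GM-BMDC than in GM-BMM, and 3 higher and 2 lower than in M-BMM. That list also holds genes of other interferon receptors, such as Ifngr2 and Il10rb, which were among the lower against GM-BMM. The kinases Jak2 and Tyk2 were among the higher. Their log2 differences were 1.22 and 0.59 from GM-BMM and 3.11 and 0.70 from M-BMM. Jak2 is not among the type I receptor kinases named above. Jak1, which is, read 10.69 and 10.66 in GM-BMDC, 10.82 and 10.75 in GM-BMM and 10.70 and 10.61 in M-BMM. It was called in neither comparison (limma adjusted p = 0.658 and 0.923). The Tyk2 call against GM-BMM was lost in 5 of the 6 fits that left out 1 array, and the Ifnar2 call against M-BMM in 4 of 6.

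Irf9, the DNA-binding subunit of ISGF3, was level across the arrays, at 9.49 and 9.45 in GM-BMDC, 9.31 and 9.62 in GM-BMM and 9.52 and 9.42 in M-BMM. Its log2 difference from GM-BMM was 0.00, with a 95% interval of -0.31 to 0.32. Irf7, the factor that amplifies interferon alpha transcription and is itself induced by interferon, read 7.73 and 7.97 in GM-BMDC, 10.50 and 11.38 in GM-BMM and 10.69 and 10.54 in M-BMM. It was 8.53-fold lower in GM-BMDC than in GM-BMM (log2 difference -3.09, SE 0.26, adjusted p = 0.000632) and 6.79-fold lower than in M-BMM (-2.76, SE 0.26, adjusted p = 0.000578). Its GM-BMM arrays had the same order as the members, replicate 2 above replicate 1. Of the 8 regulatory factors read, 3 were higher and 1 lower in GM-BMDC than in GM-BMM, and 4 higher and 1 lower than in M-BMM. Irf4 and Irf8, factors of dendritic cell development, were 5.33-fold and 1.91-fold higher in GM-BMDC than in GM-BMM, and the Irf8 call was lost in 4 of the 6 fits that left out 1 array.

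**Figure D5:**
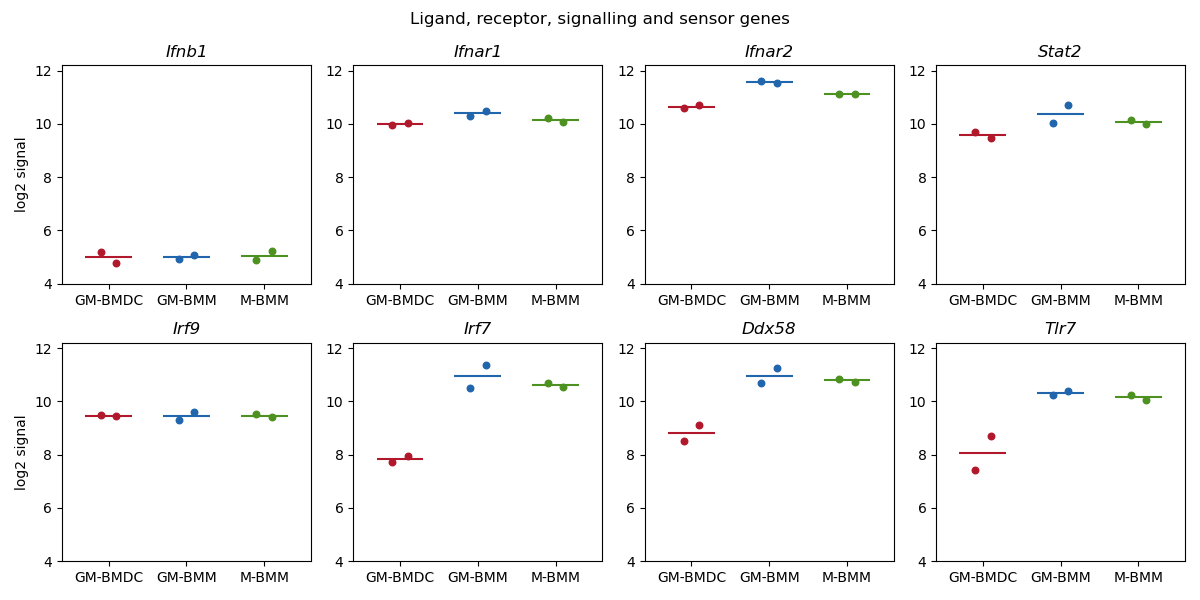
Log2 signal of 8 genes of the pathway on the 6 arrays (points, replicate 1 left of replicate 2) with the mean of each population (bar). Ifnb1 lies near 5 and Irf9 near 9.5 in all populations, while Irf7, Ddx58 and Tlr7 are low in GM-BMDC.

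Sensors that start interferon production were split. Of 14 sensor and adaptor genes outside the members, 1 was higher and 5 lower in GM-BMDC than in GM-BMM, and 2 higher and 5 lower than in M-BMM. Ddx58 (RIG-I), a sensor of RNA with a free triphosphate end, read 8.53 and 9.13 in GM-BMDC, 10.69 and 11.25 in GM-BMM and 10.85 and 10.74 in M-BMM, 4.40-fold and 3.89-fold lower. The endosomal RNA receptor Tlr7 read 7.44 and 8.72 in GM-BMDC, 10.23 and 10.40 in GM-BMM and 10.26 and 10.07 in M-BMM. It was 4.70-fold lower than in GM-BMM (log2 difference -2.23), with -1.59 without GM-BMDC replicate 1 and -2.88 without GM-BMDC replicate 2. Tlr3, of the same kind, was 4.08-fold lower than in GM-BMM, and Ikbke, a kinase that activates the regulatory factors, was 4.85-fold lower than in M-BMM. Sting1, the adaptor of cytosolic DNA sensing, went the other way. It read 11.23 and 11.28 in GM-BMDC, 10.52 and 10.19 in GM-BMM and 8.86 and 9.06 in M-BMM, 1.86-fold and 4.92-fold higher in GM-BMDC.

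Genes that restrain the response did not share 1 direction. Of 13 read, 1 was higher and 2 lower in GM-BMDC than in GM-BMM, and 1 higher and 1 lower than in M-BMM. The 2 lower were Socs3 and Socs1, inhibitors of cytokine signalling, by 1.55 and 1.30 on the log2 scale (limma adjusted p = 0.000848 and 0.0172). The Socs1 difference ran from -1.65 to -0.96 when single arrays were left out. Socs1 read 8.21 and 7.69 in GM-BMDC, 9.59 and 8.91 in GM-BMM and 7.30 and 7.41 in M-BMM, with the higher GM-BMM value in replicate 1, opposite to the order of the members.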

How the data were processed

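Total RNA of 6 sorted samples, 300 ng each, was hybridised to 1 Affymetrix array per sample. The deposited values are log2 signals that the authors made with Affymetrix Expression Console 1.1 and RMA, per the submitters' processing notes. RMA evens out the arrays, so a shift shared by all genes would not be seen. Array medians lay between 6.18 and 6.28.

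From 35556 probe sets, the 21789 annotated to 1 gene were used. A gene with several was represented by the probe set of highest mean signal, giving 19938 genes. Precision is limited by the number of arrays, 2 per group, with a median standard error of 0.132 for log2 differences. All 6 arrays were fitted with limma 3.58.1 in R 4.3.3, with group as the only term, default moderation (3 residual and 4.34 prior degrees of freedom), two-sided tests and Benjamini-Hochberg adjustment over all 19938 genes within a comparison. The fit was tested on simulated data. Intervals are at 95% with 7.34 degrees of freedom. Groups of 2 cannot reach p under 0.05 in a permutation test, so none was run.

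Members and lists were chosen with earlier results of these data known. All members are named. Of each pathway list the text draws on up to 3 genes past the threshold with the largest differences, with Irf7, Irf9, Ifnar1, Ifnar2 and Ifnb1 always, the sort gate genes, Xist and 3 Y-linked genes. Single markers outside the sort gate, and examples from the closing section's lists, were picked with their values known. Promoters come from RefSeq, for the members with the most response element cores. Alternatives left out arrays, added the replicate number or Y-linked signal as a term, and changed the groups fitted, variance model, filter, normalization and probe sets. Software was Python 3.11.15 with pandas 2.3.3, SciPy 1.17.1, NumPy 2.4.6 and matplotlib 3.10.9.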

Additional observations from a re-analysis of the deposited data

How the results depend on the processing

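The 2 arrays per population limit every call. Without moderation of the variances 0 members passed in any comparison, but almost no gene did (0% to 0.0451% of all genes per direction), so this count says nothing particular about the members, and at an unadjusted p under 0.05 26 were lower in GM-BMDC than in GM-BMM, 21 lower in GM-BMDC than in M-BMM and 4 higher in GM-BMM than in M-BMM. Leaving out 1 array at a time gave 19 to 30 members lower and 0 to 1 higher in GM-BMDC than in GM-BMM. It gave 11 to 28 lower and 0 to 1 higher in GM-BMDC than in M-BMM, and 0 to 6 higher and 0 to 2 lower in GM-BMM than in M-BMM. Without both GM-CSF arrays numbered 1, 13 members were higher in GM-BMM than in M-BMM, and 1 was higher in GM-BMDC than in M-BMM. Without both numbered 2, 1 was higher in GM-BMDC than in each of GM-BMM and M-BMM, and 3 were lower in GM-BMM than in M-BMM. Fitting only the groups compared gave 1 higher in GM-BMDC than in M-BMM (8.03% of all genes). Testing all probe sets gave 18 and 19 members lower in GM-BMDC than in GM-BMM and M-BMM. The calls over all 35556 probe sets shrank too, to 2.06% and 3.94% lower. In that setting 0 members were higher in GM-BMM than in M-BMM (1.63% of all probe sets). A required change of at least 2-fold left 1 member higher in GM-BMM than in M-BMM. All genes were not counted with that requirement. A group cut to 1 array was taken to have the spread of the other groups. The share of all genes called also moved from fit to fit when single arrays were left out. The ranges of member counts from those fits are therefore not a result about the members alone.

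The labels number the replicates in each population, but same-numbered arrays did not deviate together: the correlation of deviations over 19938 genes was 0.024 between GM-BMDC and GM-BMM, -0.132 between GM-BMDC and M-BMM and 0.026 between GM-BMM and M-BMM. The Y-linked genes did split by number in both GM-CSF populations: Eif2s3y in replicate 2 minus replicate 1 was 4.86 in GM-BMDC and 5.44 in GM-BMM. With the replicate number as a block, 27 members were lower in GM-BMDC than in GM-BMM (5.38% of all genes) and 25 lower than in M-BMM (8.04%). In that fit 2 were higher in GM-BMM than in M-BMM (3.59%).

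The differences that changed sign were close to 0 or uncalled, and the cause was not tested. Mx1 was at -0.20 in GM-BMDC minus GM-BMM without both GM-CSF arrays numbered 1. Irf9 was at -0.17 in that comparison and 0.15 in GM-BMM minus M-BMM in the same setting. Without both numbered 2, Irf9 was at 0.02 in GM-BMDC minus M-BMM, with the Y-linked covariate at 0.08 in GM-BMM minus M-BMM and 0.09 in GM-BMDC minus M-BMM, and with quantile normalization at 0.05 in GM-BMDC minus M-BMM. Ifnb1 was at 0.26 in GM-BMDC minus GM-BMM and 0.14 in GM-BMDC minus M-BMM without both numbered 2, and at 0.02 in GM-BMM minus M-BMM without both numbered 1. Irf7 was at -0.11 in GM-BMM minus M-BMM without both numbered 2. Leaving out single arrays gave Irf9 ranges of -0.15 to 0.16 in GM-BMDC minus GM-BMM, -0.17 to 0.15 in GM-BMM minus M-BMM and -0.05 to 0.05 in GM-BMDC minus M-BMM. The ranges of Ifnb1 were -0.22 to 0.19, -0.21 to 0.11 and -0.27 to 0.14 in the same order, and Irf7 ranged from -0.11 to 0.77 in GM-BMM minus M-BMM.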

Other observations

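Other interferon-stimulated genes outside the 39 followed the members in part. Of 45 read, 3 were higher and 22 lower in GM-BMDC than in GM-BMM, where 4.69% of all genes were called higher and 5.74% lower. Against M-BMM, 5 were higher and 21 lower in GM-BMDC (7.76% and 8.9% of all genes). In GM-BMM, 5 were higher and 0 lower than in M-BMM (3.62% and 2.57% of all genes). Ifit3b, a close copy of Ifit3 whose probes may share its RNA, read 3.87 and 3.56 in GM-BMDC, 5.39 and 6.95 in GM-BMM and 6.92 and 6.68 in M-BMM. Slfn1, a schlafen protein of growth control, was high in 1 population: it read 7.86 and 8.04 in GM-BMDC, 10.79 and 11.16 in GM-BMM and 8.18 and 7.78 in M-BMM. The chemokine gene Ccl5 was higher in both GM-CSF populations, with 13.45 and 13.16 in GM-BMDC, 12.04 and 12.57 in GM-BMM and 9.04 and 9.05 in M-BMM. Ifitm1, a membrane protein that hinders viral entry, read 11.66 and 12.59 in GM-BMDC, 10.92 and 9.44 in GM-BMM and 9.05 and 8.97 in M-BMM, and so was highest where the members were lowest.

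Of 9 guanylate-binding and immunity-related GTPases read, 1 was higher and 3 lower in GM-BMDC than in GM-BMM (4.69% and 5.74% of all genes). Against M-BMM, 2 were higher and 3 lower (7.76% and 8.9% of all genes). Iigp1, which attacks the vacuoles of intracellular parasites in mice, read 4.68 and 4.70 in GM-BMDC, 6.37 and 6.60 in GM-BMM and 6.88 and 6.42 in M-BMM. Gbp5 had the opposite order, with 9.0 and 8.24 in GM-BMDC, 7.67 and 7.61 in GM-BMM and 6.77 and 6.66 in M-BMM. Its log2 difference from GM-BMM was 0.98 (limma adjusted p = 0.0352), and ran from 0.60 to 1.37 when single arrays were left out.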
